A study of Mus musculus with 6 samples.

Results

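The cyclin-dependent kinase (CDK) inhibitors of the Cdkn1 and Cdkn2 families were followed in mouse embryonic fibroblasts (MEFs) that carried an HA-tagged Fbxl10 cDNA. The 7 genes Cdkn1a, Cdkn1b, Cdkn1c, Cdkn2a, Cdkn2b, Cdkn2c and Cdkn2d were taken by name, and every probe set that the platform annotation gives to 1 gene alone was read. This covered 6 of the 7 genes with 7 probe sets, out of 19936 genes measured in the same way. Cdkn1a, the gene of p21, has no such probe set, because its only one is also annotated to a second gene, and no level is given for it.

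The arrays were Affymetrix expression arrays hybridised with 300 ng of total RNA each. The control group held 3 RNA samples of an untransfected, stable MEF-derived Tet-off line, a kind of line whose tetracycline-regulated transactivator switches on introduced genes. The HA-Fbxl10 group held 3 RNA samples of the same line after transfection with an HA-Fbxl10 plasmid together with a plasmid for hygromycin resistance, from clones picked for HA-Fbxl10 expression. How many clones were used, and whether tetracycline or doxycycline was present, was not given in the sources used here. Neither a vector-only nor a hygromycin-selected control was among the samples, so transfection, drug selection and clone choice cannot be told apart from Fbxl10 itself. The samples are called independent, without mention of separate clones or cultures. The p-values below therefore cover the spread among these samples alone, which may be technical. The question asked of these data is which CDK inhibitor transcripts differed between HA-Fbxl10 and control cells.

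CDK inhibitors are the brakes of the cell cycle. The INK4 proteins bind the kinases Cdk4 and Cdk6 and keep the D-type cyclins from activating them, which leaves the retinoblastoma protein able to hold back the E2F factors. The CIP/KIP proteins bind cyclin-kinase complexes more broadly, above all those of Cdk2. Cdkn2a is unusual in that alternative first exons give it a pair of unrelated products, the INK4 protein p16 and the p53-stabilising protein ARF. In cultured fibroblasts the Cdkn2a-Cdkn2b locus is known for its silencing by Polycomb complexes and for its rise as cells approach senescence. Fbxl10, now named Kdm2b, is a JmjC-domain histone demethylase whose zinc finger binds unmethylated CpG dinucleotides and which brings a Polycomb complex to CpG islands. Repression of this locus by Kdm2b in MEFs is known from other work.

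Kdm2b was higher in every HA-Fbxl10 array. It read 7.38, 7.45 and 7.28 on the log2 scale in the control arrays (replicates 1, 2 and 3) and 9.77, 9.75 and 9.58 in the HA-Fbxl10 arrays, a difference of 2.33 ± 0.08 (SE, limma adjusted p = 3.31e-07). Array medians lay between 4.69 and 4.79. Arrays of one group correlated at Pearson's r of 0.994 to 0.996 over all probe sets, and arrays of different groups at 0.990 to 0.992. Of 15 fibroblast markers measured, 13 lay above the median level of all genes (5.36), with the intermediate filament gene Vim at 12.9 in both groups. Of the 15, 5 fell and 1 rose, with Col3a1 lower by 0.79 ± 0.07 (SE) and P4ha1 higher by 0.49 ± 0.07. This is 40% called at the threshold given below, close to the 37% of all genes above the median level. Levels averaged over the fibroblast list ran from 9.36 to 9.39 in control arrays and from 9.18 to 9.29 in HA-Fbxl10 arrays. Of 30 macrophage, endothelial and epithelial markers 5 lay above that median, and among these lists 3 rose, led by Flt1 (1.62 ± 0.10), and 1 fell, Cd14, a call lost when replicate 1 or 3 was left out on either side (adjusted p from 0.085 to 0.119). The shares called in the macrophage, endothelial and epithelial lists were 10%, 20% and 10%, against 21.1% of all genes. The pan-leukocyte gene Ptprc and the epithelial gene Epcam lay below the median level of all genes in both groups. The keratin gene Krt19, also on the epithelial list, lay above it and rose by 0.71 ± 0.08 (SE, adjusted p = 0.000385). Vim, Ptprc and Epcam were picked with their values known. The part of these shifts in the results below was not tested.

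Among the 6 CDK inhibitor genes measured, Cdkn2b and Cdkn2a fell, Cdkn2d and Cdkn1b rose, and Cdkn2c and Cdkn1c did not pass the test. The threshold was an adjusted p of 0.05 in limma, a linear model with a spread shared across genes, over all 19936 genes. In that fit 21.1% of all genes and 37% of genes above the median level were called. Of the 6 CDK inhibitor genes 5 lay above the median level, Cdkn1c being the exception. With 4 of 6 genes called, the count is small and no statement on the family against other genes is drawn from it. Calls over all genes were 10.5% higher and 10.6% lower (49.8% of calls higher, or 62.9% once array medians were subtracted), and the family's own split was even as well. The family's median log2 fold change (HA-Fbxl10 minus control throughout) was -0.04, against -0.0043 over all genes. Its median absolute change was 0.37, against 0.11 over all genes and 0.18 for genes above the median level. With 6 genes, chosen with earlier results of these data known, nothing is drawn from this contrast either.

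**Figure D1:**
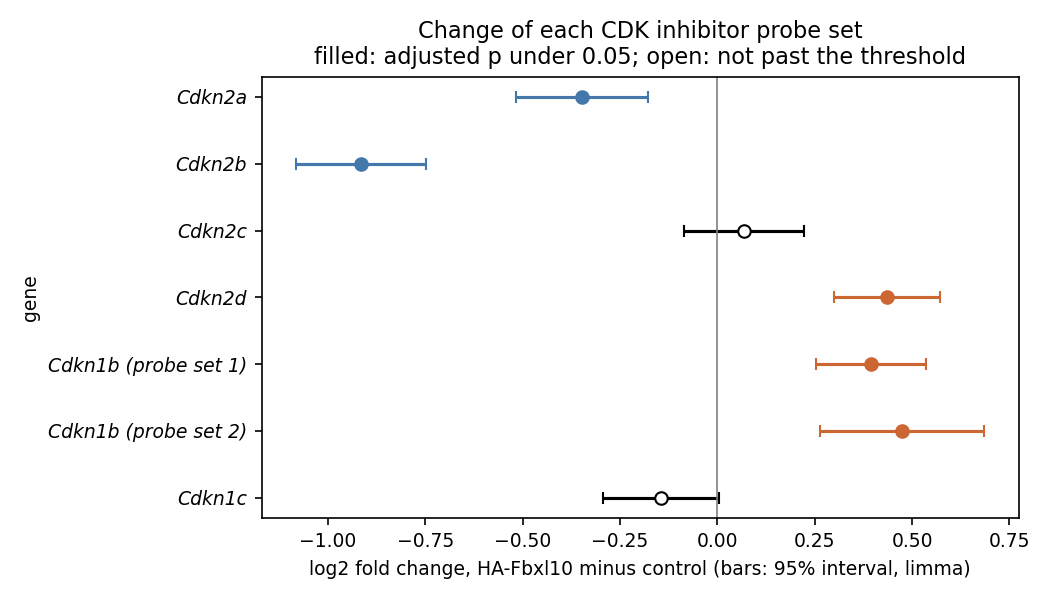
Log2 fold change (HA-Fbxl10 minus control, horizontal axis) of each CDK inhibitor probe set, with its 95% interval from limma. Filled points passed an adjusted p of 0.05 and open points did not. Cdkn2b lies farthest from 0 at -0.91, and the intervals of Cdkn2c and Cdkn1c include 0.

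Cdkn2b encodes p15, an INK4 protein best known as the arm of the cell cycle brake that TGF-beta switches on. It showed the largest change of the family. Control arrays read 8.46, 8.34 and 8.50 and HA-Fbxl10 arrays read 7.62, 7.45 and 7.48. All 3 control arrays lay above all 3 HA-Fbxl10 arrays, with a gap of 0.72 between the groups. Arrays did not overlap for 36% of all genes and for 57.9% of genes above the median level, so a lack of overlap alone is common here. The mean fell from 8.43 ± 0.08 to 7.51 ± 0.09 (SD, n = 3 each), a log2 fold change of -0.91 ± 0.07 (SE, 95% interval -1.08 to -0.75, limma adjusted p = 4.74e-05). On a linear scale the signal was 1.89-fold lower (95% interval 1.68 to 2.12), that is 53% of the control signal. Of all genes, dim ones included, 1.18% had a larger absolute change. The median absolute change was 0.11 over all genes and 0.18 over genes above the median level, where Cdkn2b lay.

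Cdkn2a, which encodes p16 and ARF, fell less than Cdkn2b. Its control arrays read 9.43, 9.47 and 9.54 and its HA-Fbxl10 arrays 9.24, 9.02 and 9.13. The groups did not overlap and lay 0.18 apart, with replicate 1 the highest of the HA-Fbxl10 arrays. The mean went from 9.48 ± 0.05 to 9.13 ± 0.11 (SD, n = 3 each), a log2 fold change of -0.35 ± 0.08 (SE, 95% interval -0.52 to -0.18, limma adjusted p = 0.00942), or 1.27-fold lower. The probe set is annotated to the transcripts of both products, so the values do not say whether p16 RNA, ARF RNA or both were lower. Of all genes, dim ones included, 13.1% had a larger absolute change.

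The unequal size of these falls was also read within each array, where Cdkn2b minus Cdkn2a cancels anything that scales both genes alike. This log2 difference was -0.97, -1.13 and -1.04 in control arrays and -1.63, -1.57 and -1.65 in HA-Fbxl10 arrays, again without overlap. It shifted by -0.57, so the Cdkn2b signal fell 1.48-fold further than the Cdkn2a signal. Since the Cdkn2a probe set is annotated to p16 and ARF transcripts alike, it cannot say whether either fell as far as Cdkn2b. The exact two-sided permutation test gave p = 0.1, the smallest value that 3 arrays against 3 can give. In all, 5 such differences between pairs of CDK inhibitor genes were computed, and the exact permutation test gave p = 0.1 (adjusted 0.1) for each, so none could pass 0.05 in this design. Cdkn2d minus Cdkn2b, genes that moved in opposite directions, shifted by 1.35, and Cdkn1b minus Cdkn2b by 1.31. Each such shift equals the difference between the fold changes of the paired genes and is no separate evidence. Not all possible pairs were computed.

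The stretches just before the starts of these genes are shown because they are what a CpG-binding protein could meet there. They are the 250 bases before each start in RefSeq (GRCm38.p6, minus strand, 5′ to 3′), with CpG dinucleotides in capitals. Cdkn2a has 2 starts in that table, the upstream one belonging to ARF and the downstream one to p16.
Cdkn2b, chr4:89311033-89311282: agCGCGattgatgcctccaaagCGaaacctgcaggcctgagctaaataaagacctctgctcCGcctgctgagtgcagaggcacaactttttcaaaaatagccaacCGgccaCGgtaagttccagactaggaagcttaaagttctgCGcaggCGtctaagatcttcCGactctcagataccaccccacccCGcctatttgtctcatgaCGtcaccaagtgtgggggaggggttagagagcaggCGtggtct
Cdkn2a upstream start, chr4:89294620-89294869: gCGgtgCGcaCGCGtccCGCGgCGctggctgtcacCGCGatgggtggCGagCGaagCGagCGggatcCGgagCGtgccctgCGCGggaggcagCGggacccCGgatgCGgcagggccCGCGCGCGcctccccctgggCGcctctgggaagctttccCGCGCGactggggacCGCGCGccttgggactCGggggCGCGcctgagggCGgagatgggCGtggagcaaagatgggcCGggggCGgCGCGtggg
Cdkn2a downstream start, chr4:89282193-89282442: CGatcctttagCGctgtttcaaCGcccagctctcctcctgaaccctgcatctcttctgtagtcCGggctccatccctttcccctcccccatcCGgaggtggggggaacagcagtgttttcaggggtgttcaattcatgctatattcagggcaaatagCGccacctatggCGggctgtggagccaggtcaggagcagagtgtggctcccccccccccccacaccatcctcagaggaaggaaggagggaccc

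The family's stretches read here leave out Cdkn1c, for which none was found. Among them the upstream Cdkn2a stretch is the richest in CpG, with 40 CpG dinucleotides and a GC content of 78.4%. Fewer are held by 98.7% of the 32851 such stretches of all genes. The downstream Cdkn2a stretch holds 7 and that of Cdkn2b holds 12, against a median of 6 over all of them. Cdkn2b, the gene that fell most, thus has a count between those of the 2 starts of Cdkn2a. The letters TTTCCCGC, one form of the E2F motif, occur once in the upstream Cdkn2a stretch (either strand) and in none of the other stretches of the family, while 0.895% of all stretches hold them. TTTGGCGC, CACGTG and TATAAA, searched on both strands, were found in no stretch of the family. They occur in 0.417%, 6.02% and 12.4% of all stretches. These are matches of letters, and neither binding nor methylation was measured.

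Cdkn2d, the gene of the INK4 protein p19, rose. Its control arrays read 7.69, 7.73 and 7.65 and its HA-Fbxl10 arrays 8.15, 8.11 and 8.13. These were the tightest groups of the family, 0.38 apart. The mean went from 7.69 ± 0.04 to 8.13 ± 0.02 (SD, n = 3 each), a log2 fold change of 0.44 ± 0.06 (SE, 95% interval 0.30 to 0.57, limma adjusted p = 0.000943), or 1.35-fold higher. Removing the median change of chromosome 9 (0.22 over 573 genes above the median level) lowered it to 0.22 (adjusted p = 0.0352).

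Cdkn2c, the gene of the INK4 protein p18, which lies elsewhere on chromosome 4, did not pass the test. Control arrays read 9.17, 9.01 and 9.10 and HA-Fbxl10 arrays 9.21, 9.15 and 9.13. The groups overlapped. The log2 fold change was 0.07 ± 0.07 (SE, limma adjusted p = 0.575), and its 95% interval of -0.08 to 0.22 leaves room for a change of up to 1.17-fold. Within arrays, Cdkn2d minus Cdkn2c shifted by 0.37 and Cdkn2a minus Cdkn2c by -0.42, both without overlap of the groups and both at the smallest possible p of 0.1.

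**Figure D2:**
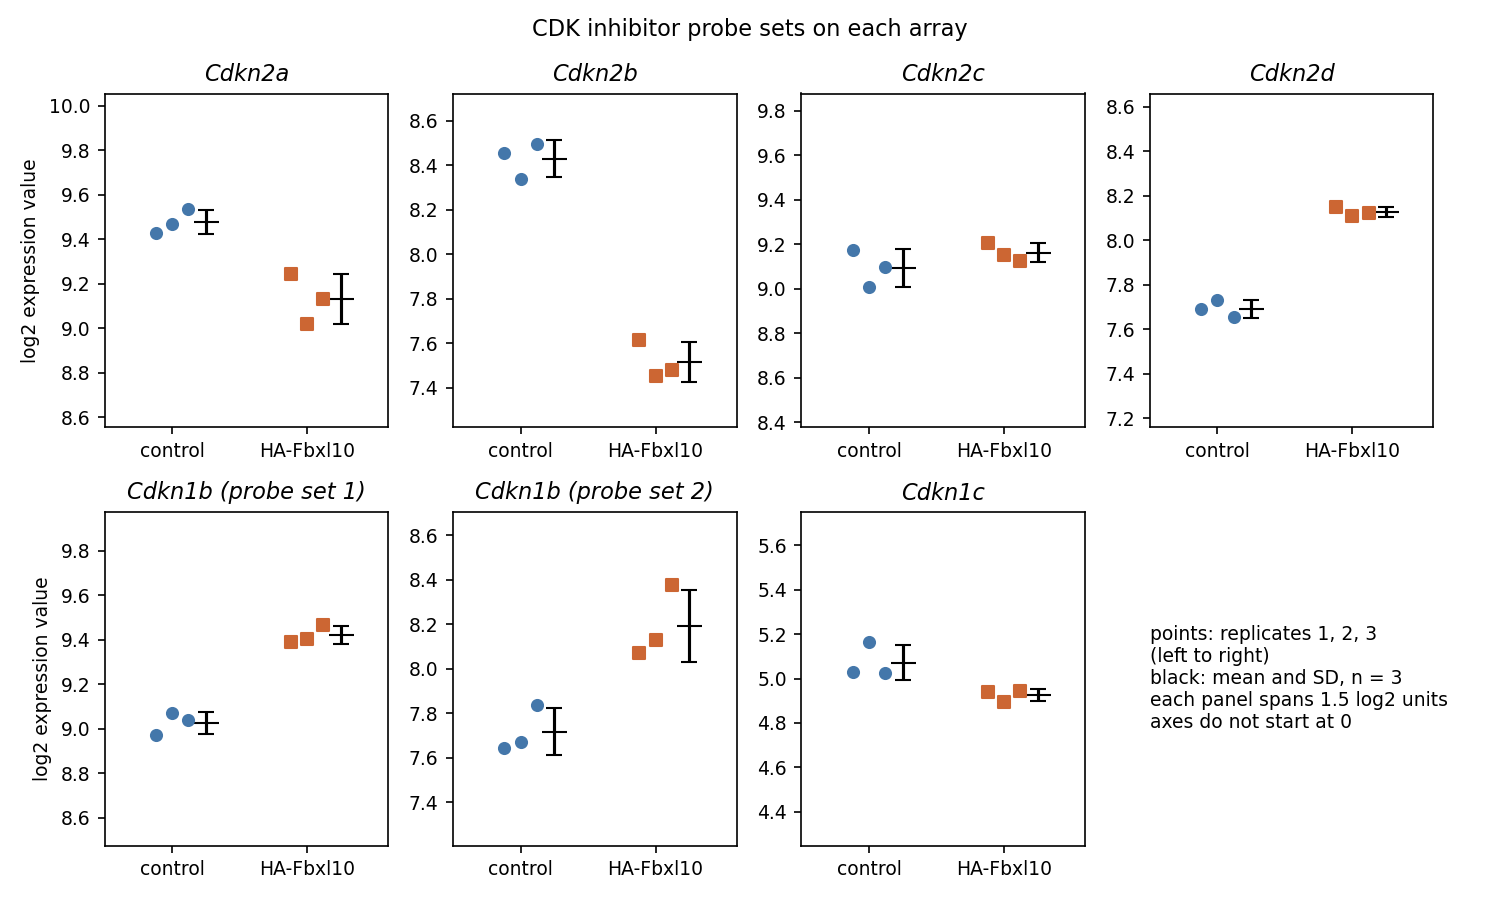
Log2 expression value (vertical axis, 1.5 log2 units in every panel) of each CDK inhibitor probe set on each array. Circles are the 3 control arrays, squares the 3 HA-Fbxl10 arrays, and black bars the mean and SD. The groups do not overlap for any gene shown other than Cdkn2c, which is common here. The same held for 36% of all genes and 57.9% of genes above the median level.

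Among the CIP/KIP genes, Cdkn1b rose and Cdkn1c did not pass the test. Cdkn1b encodes p27, the inhibitor of Cdk2 complexes that accumulates in resting cells and is known to be set largely by protein turnover. The first of its 2 probe sets read 8.97, 9.07 and 9.04 in control arrays and 9.39, 9.41 and 9.47 in HA-Fbxl10 arrays. The groups lay 0.32 apart. The mean went from 9.03 ± 0.05 to 9.42 ± 0.04 (SD, n = 3 each), a log2 fold change of 0.39 ± 0.06 (SE, 95% interval 0.25 to 0.54, limma adjusted p = 0.00196), or 1.31-fold higher.

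The second probe set of Cdkn1b also rose. It read 7.64, 7.67 and 7.84 in control arrays and 8.07, 8.13 and 8.37 in HA-Fbxl10 arrays. It was the more variable of the pair, with replicate 3 the highest in both groups. Its log2 fold change was 0.47 ± 0.09 (SE, 95% interval 0.26 to 0.69, limma adjusted p = 0.00638 over all 21789 single-gene probe sets, of which 20.7% were called). The intervals of the 2 probe sets overlap widely.

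Cdkn1c encodes p57, an imprinted inhibitor expressed from the maternal copy. Averaged over the arrays, it sat under the median gene level but over the lower quartile (3.75). Control arrays read 5.03, 5.16 and 5.02 and HA-Fbxl10 arrays 4.94, 4.90 and 4.95. The groups did not overlap, but they lay only 0.08 apart. The log2 fold change was -0.14 ± 0.07 (SE, 95% interval -0.29 to 0.0044, limma adjusted p = 0.173). The interval reaches a decrease of at most 1.23-fold.

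The stretches before the starts of the 2 genes that rose are set beside those of the genes that fell, from the same table and with CpG dinucleotides in capitals.
Cdkn1b, plus strand, chr6:134920151-134920400: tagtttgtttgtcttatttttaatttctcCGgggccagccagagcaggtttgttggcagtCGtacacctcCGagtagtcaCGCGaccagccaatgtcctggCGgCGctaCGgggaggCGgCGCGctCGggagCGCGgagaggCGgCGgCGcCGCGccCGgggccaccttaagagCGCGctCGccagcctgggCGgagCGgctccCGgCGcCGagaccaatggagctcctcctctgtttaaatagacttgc
Cdkn2d, minus strand, chr9:21291210-21291459: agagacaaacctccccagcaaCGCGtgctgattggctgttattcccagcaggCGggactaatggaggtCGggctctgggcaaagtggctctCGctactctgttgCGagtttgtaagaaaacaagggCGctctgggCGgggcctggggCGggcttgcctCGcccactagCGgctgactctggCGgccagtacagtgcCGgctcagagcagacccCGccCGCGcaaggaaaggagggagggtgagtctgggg

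Both are CpG-rich, with 28 CpG dinucleotides before Cdkn1b and 16 before Cdkn2d. Fewer are held by 92.4% and 74.6% of all stretches. The GC box GGGCGG (either strand) occurs once before Cdkn1b, 3 times before Cdkn2d and 2 times before the upstream start of Cdkn2a, but not before Cdkn2b, and 32.7% of all stretches hold it. Before Cdkn2c, which was not called, the 2 starts have 29 and 6 CpG dinucleotides, with 3 GC boxes before the first of these. The CpG counts of genes that rose, fell or were not called thus overlap.

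Each CDK inhibitor gene was then set beside its neighbours in gene order. For each, the 10 nearest genes above the median level on either side were read. Of all genes above the median level 37% were called, the share to set beside each count of neighbours below. Around Cdkn2b the 20 neighbours had a median log2 fold change of -0.0086, and 4 rose, 4, Cdkn2a among them, fell and 12 were not called. None of them changed as much as Cdkn2b, their values running from -0.41 to 0.45. Its own value was -0.87 once a running median was taken off (adjusted p = 8e-05). That median covered 31 genes above the median level in gene order, the gene itself among them.

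The neighbours of Cdkn2a, which include Cdkn2b, had a median of -0.03, with 4 higher, 5 lower and 11 not called. Mtap, a methionine salvage enzyme gene next to Cdkn2a on the side away from Cdkn2b, read 9.44 ± 0.06 in control and 9.39 ± 0.04 in HA-Fbxl10 cells (SD, n = 3 each). Its log2 fold change of -0.05 ± 0.06 (SE, 95% interval -0.19 to 0.10, limma adjusted p = 0.692) did not pass the test. On the other side of Cdkn2b the nearest measured gene is Dmrta1 (-0.18 ± 0.09, adjusted p = 0.205), which lay below the lower quartile of genes. The next genes above the median level, Elavl2 (-0.30) and Tusc1 (-0.40), both fell, and their values were known when they were named. The call of Elavl2 (adjusted p = 0.0247) ended with chromosome medians removed (-0.21, adjusted p = 0.104) and when replicate 2 or 3 of control or of HA-Fbxl10 was left out (0.0728 to 0.0834). It also ended with quantile normalisation (0.0531), with array medians subtracted (0.0587) and with a replicate block in the model (0.0675). Cdkn2a kept its call with the running median removed (-0.30, adjusted p = 0.0261) and with the chromosome median removed (-0.26, adjusted p = 0.0402).

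Cdkn1b lies on chromosome 6 among neighbours that were called higher more often than lower. Of these 20 genes 10 rose, 1 fell and 9 were not called, with a median log2 fold change of 0.22, while the median of the whole chromosome was -0.13 over 478 genes. Of these neighbours 5 had values above that of Cdkn1b. Next to Cdkn1b, Gpr19 fell (-0.37 ± 0.08, SE, adjusted p = 0.00839), and Apold1 did not pass the test (0.04 ± 0.06, adjusted p = 0.712). The change of Gpr19 was -0.24 (adjusted p = 0.0641) with the chromosome median removed and -0.59 (adjusted p = 0.000977) with the running median removed. With the running median removed the change of Cdkn1b was 0.18 and its call ended (adjusted p = 0.101), and with the chromosome median removed it was 0.52 (adjusted p = 0.000543).

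Around Cdkn2d the 20 neighbours had a median of 0.08, with 5 higher, 1 lower and 14 not called, and 2 of the 20 lay above Cdkn2d. Its adjacent genes Kri1 (0.01 ± 0.07) and Ap1m2 (0.02 ± 0.11) did not pass the test (adjusted p of 0.944 and 0.939). With the running median removed Cdkn2d stood at 0.36 (adjusted p = 0.00353). The neighbours of Cdkn2c had a median of 0.03, and those of Cdkn1c, in an imprinted region, a median of 0.08. The genes next to Cdkn2c, 9630013D21Rik and Faf1, and those next to Cdkn1c, Kcnq1 and Slc22a18, did not pass the test (adjusted p of 0.144 to 0.854). For Cdkn1a, which has no value of its own, the neighbours had a median of 0.14, with 5 higher, 0 lower and 15 not called. Its adjacent genes Srsf3 and Rab44 did not pass the test either (adjusted p of 0.247 and 0.631).

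**Figure D3:**
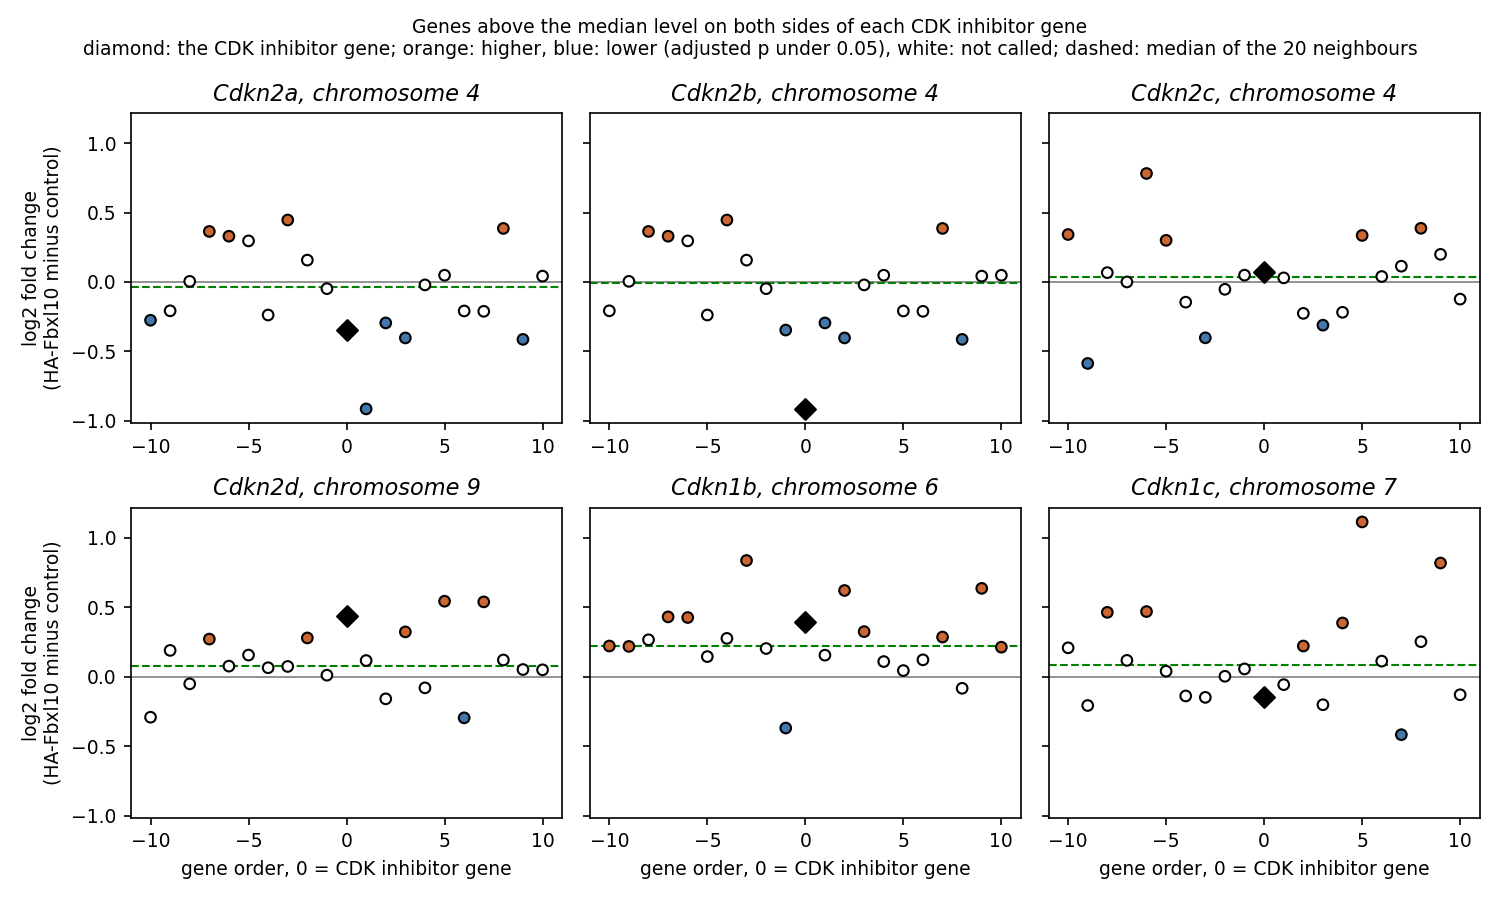
Log2 fold change (vertical axis) of the 10 nearest genes above the median level on each side of the 6 measured CDK inhibitor genes, by their place in gene order (horizontal axis), with the CDK inhibitor gene as a black diamond. Cdkn2b stands at -0.91 among neighbours with a median of -0.0086, whereas Cdkn1b stands at 0.39 among neighbours with a median of 0.22.

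Other genes shared the array-by-array pattern of the 4 called CDK inhibitors closely. Likeness was measured as the root mean square difference between gene-centred log2 values over the 6 arrays, and the 3 closest of all genes were taken. For Cdkn2b these were Plekhg4 (0.0246), Blvrb (0.0525) and Hacl1 (0.0565), each on another chromosome. For Cdkn2a they were H1f2 (0.0274), Ksr1 (0.0279) and Kcnab2 (0.0327), the last of which is on chromosome 4 too. For Cdkn1b they were Nfix, Apbb1ip and Snx14 (0.0177 to 0.0204), and for Cdkn2d Atp1b3, also on chromosome 9, Prdx4 and Col4a5 (0.0154 to 0.0253). No CDK inhibitor gene was among the closest genes of another. Close genes by this measure had changes of nearly the same size, such as Plekhg4 (-0.91) beside Cdkn2b (-0.91). Since the 4 called CDK inhibitors differed in the size of their change and many genes were called, nothing about the family is drawn from this.

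Cyclin and CDK genes were called about as often as other genes of their level. In a list of 20 cyclins, CDKs and CDK-regulating enzymes, 19 were measured, 7 rose, 1 fell and 11 were not called (42.1% called, against 37% of genes above the median level). The D-type cyclin genes Ccnd1 (0.60 ± 0.06, SE) and Ccnd3 (0.45 ± 0.07) rose, and so did Ccnd2 (0.39 ± 0.07) and the kinase gene Cdk6 (0.27 ± 0.07). The call of Cdk6 ended with the running median removed (0.15, adjusted p = 0.183), with chromosome medians removed (0.11, 0.359) and when control replicate 1 (0.0719), control replicate 2 (0.0535) or HA-Fbxl10 replicate 3 (0.071) was left out. Cdk4, their other kinase, did not pass the test (-0.04 ± 0.06, 95% interval -0.19 to 0.11). Ccne2, a cyclin of Cdk2, rose by 0.43 ± 0.08, while Cdk2 itself, the main target of p27, did not pass the test (0.23 ± 0.09, adjusted p = 0.102). Ccnd2, Cdk6, Cdk4 and Cdk2 were picked with their values known. The 1 gene that fell was Ccnh (-0.30 ± 0.08), a cyclin of the CDK-activating kinase, and its call ended without any 1 array other than control replicate 2 (adjusted p of 0.0631 to 0.091). The list's median change was 0.19, against -0.0043 over all genes.

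Downstream of these kinases, the Rb family and E2F list had 10 of 19 genes higher, 1 lower and 8 not called (57.9% called, against 21.1% of all genes and 37% of those above the median level, where 18 of the 19 lay), with a median of 0.25. E2f8, an atypical repressor E2F, rose by 0.63 ± 0.09 (SE) and Mybl2 by 0.45 ± 0.07. Lin54, a subunit of the DREAM complex, rose by 0.44 ± 0.09. Its call ended with the running median removed (0.29, adjusted p = 0.0736) and with chromosome medians removed (0.27, adjusted p = 0.0821). E2f5, an E2F that works with the pocket proteins, fell by 1.15 ± 0.08. The number higher was 6 without HA-Fbxl10 replicate 2, 5 with the running median removed and 4 with chromosome medians removed. Of 19 S-phase target genes of E2F, 9 rose, 2 fell and 8 were not called (57.9% called, all 19 above the median level), with a median of 0.19. Rrm2 (0.71 ± 0.07), Rrm1 (0.36 ± 0.07) and Pcna (0.36 ± 0.06) rose and the thymidine kinase gene Tk1 fell (-0.32 ± 0.06). Tk1 lost its call with the running median removed (-0.12, adjusted p = 0.232) and with chromosome medians removed (-0.19, adjusted p = 0.0614). The number lower was 1 without control replicate 1 or without any 1 HA-Fbxl10 array.

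Genes that act on the CDK inhibitors themselves went both ways. Of 20 known regulators of the INK4/ARF locus 5 rose, 5 fell and 10 were not called (50% called, against 37% of genes above the median level, as all 20 were), with a median of -0.0009. Ets1 (0.66 ± 0.07, SE) and Ets2 (-0.74 ± 0.07), related factors known to activate the p16 promoter, moved in opposite directions. With the running median removed these changes were 0.27 and -0.35, still past the threshold, while the list's counts became 2 higher and 2 lower. Runx1 (-0.47 ± 0.06) and the Polycomb subunit gene Cbx8 (-0.42 ± 0.09) fell, but with the running median removed they went to -0.11 and -0.22, and their calls ended (adjusted p of 0.293 and 0.133). Of the other Polycomb genes in the list, Eed, a core subunit of the complex that methylates histone H3, rose (0.31 ± 0.07, adjusted p = 0.0107). Its call ended with the running median removed (0.21, adjusted p = 0.0674) and with its probe sets averaged (0.23, adjusted p = 0.11). Bmi1 (0.09 ± 0.07), Cbx7 (-0.23 ± 0.13), Ezh2 (0.04 ± 0.07), Suz12 (-0.04 ± 0.08), Ring1 (-0.09 ± 0.09) and Rnf2 (0.09 ± 0.07) did not pass the test (adjusted p of 0.284 to 0.777). Eed and these 6 were picked with their values known.

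In the ARF-Mdm2-p53 list 4 of 12 genes rose, 2 fell and 6 were not called (50% called, all 12 above the median level), with a median of 0.17. The checkpoint kinase gene Chek1 (0.70 ± 0.07, SE), the ubiquitin ligase gene Huwe1 (0.43 ± 0.08) and Mdm4 (0.42 ± 0.10) rose and Trp53bp1 fell (-0.33 ± 0.07). With the running median removed Chek1 stood at 0.41 (adjusted p = 0.00288) and Huwe1 at 0.11 (adjusted p = 0.469). Without HA-Fbxl10 replicate 1 or 2 the number higher was 2 and Mdm4 lost its call (adjusted p of 0.0647 and 0.0513). The number lower was 1 without control replicate 1 or 3 or without any 1 HA-Fbxl10 array. Trp53 itself has no single-gene probe set.

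Of 17 transcription factors that act on CIP/KIP genes 4 rose, 1 fell and 12 were not called, a share of 29.4% that is below the 37% of genes above the median level, where 14 of the 17 lay. Klf6 (0.36 ± 0.08, SE), Foxo1 (0.32 ± 0.08), known to activate Cdkn1b, and Smad3 (0.31 ± 0.06), a TGF-beta effector that acts on Cdkn2b, rose, and Zbtb17, the gene of Miz1, fell (-0.27 ± 0.06). With the running median removed Klf6 (0.04), Smad3 (0.04) and Zbtb17 (-0.05) were not called (adjusted p of 0.674 to 0.827) and Foxo1 stood at 0.65, which left 2 genes higher and 0 lower. Foxo1 missed the threshold when control replicate 1 (adjusted p = 0.0533) was left out, as it did when the array of HA-Fbxl10 replicate 3 was (0.0527), and Zbtb17 lost it without HA-Fbxl10 replicate 1 (0.0591). The number lower was 0 without HA-Fbxl10 replicate 1 and 2 without control replicate 3 or HA-Fbxl10 replicate 3. Of 16 genes for the turnover of p21, p27 and p57, 1 rose, 2 fell and 13 were not called, a share of 18.8% that is below the 37% of genes above the median level, where 15 of the 16 lay. Dtl, a receptor of the ligase that degrades p21, rose by 0.35 ± 0.07. Cks1b, the cofactor for p27 degradation, fell (-0.31 ± 0.08) and so did Skp1 (-0.20 ± 0.06), while Skp2, the p27 receptor, did not pass the test (0.09 ± 0.06, adjusted p = 0.4) and was picked with its value known. With the running median removed Cks1b turned to 0.06 (adjusted p = 0.713) and Skp1 went to -0.06 (adjusted p = 0.606). Cks1b lost its call without replicate 1 or 3 of control or replicate 1 or 2 of HA-Fbxl10 (adjusted p of 0.0554 to 0.0783), and Skp1 lost it without any 1 array (0.0642 to 0.138). The number lower was therefore 0 or 1 in each of these fits.

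**Figure D4:**
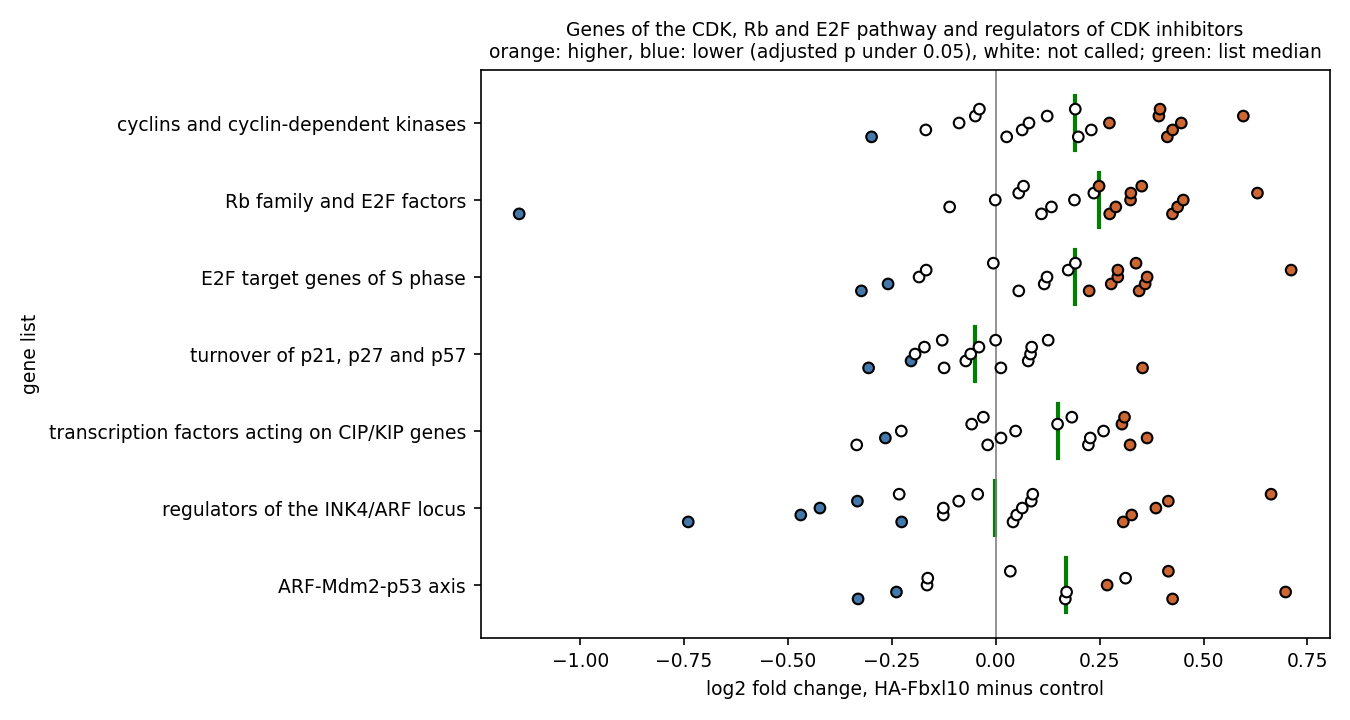
Log2 fold change (horizontal axis) of each measured gene of 7 lists around the CDK inhibitors (rows), with genes past an adjusted p of 0.05 filled (orange higher, blue lower) and the list median as a green bar. The Rb family and E2F list has the highest median (0.25), and E2f5 lies apart at -1.15.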

How the data were processed

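Total RNA of 3 control and 3 HA-Fbxl10 samples was measured on 1 array each. The authors deposited log2 values per probe set. Per the submitters' processing notes they come from RMA, with version and genome build not given in the sources used here. RMA evens out the arrays' distributions and compresses low values. Detection calls and scan dates were not at hand, so no batch could be tested.

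Of 35556 probe sets, 21789 carry 1 gene symbol, 1621 carry several and 12146 are unnamed. Symbols were updated to RefSeq (GRCm38.p6), whose table also gave gene order and the sequences before gene starts, found for 6 of the 7 CDK inhibitor genes (all but Cdkn1c). The probe set with the highest mean stood for a gene. HA-Fbxl10 was set against control by limma 3.58.1 under R 4.3.3, with lmFit, eBayes and two-sided p-values adjusted by Benjamini-Hochberg over 19936 genes (threshold 0.05). The test was checked on simulated data. Permutation tests used scipy 1.17.1. The array number limits precision.

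The members, the 11 gene lists and the alternatives were chosen with earlier results of these data known. Genes named are the family, Kdm2b, up to 4 called genes per list with the largest change and at least 1 per direction, the 3 genes most like each called member and the adjacent genes. Others are marked as named or picked with their values known. The 17 alternatives were 2 normalisations, a filter on dim genes, 2 probe set rules, a variance trend, weighted arrays, a replicate block, omission of each array, removal of chromosome or running medians, and a threshold of 0.01. Chromosome and running medians were taken over genes above the median level and removed from those genes alone.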

Additional observations from a re-analysis of the deposited data

How the results depend on the processing

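The changes of Cdkn2a (-0.40 to -0.26), Cdkn2b (-0.97 to -0.83), Cdkn2d (0.22 to 0.49) and Kdm2b (2.16 to 2.39) kept their direction and call under all 17 alternatives, and Cdkn2c and Cdkn1c stayed uncalled in each. For these uncalled genes the threshold of 0.01 could not have added a call. Removal of chromosome or running medians left Cdkn1c at -0.1446, because only genes above the median level were adjusted. Whether Cdkn1c would be called after such a removal was therefore not tested. Cdkn1b kept its call in each except after removal of the running median of 31 genes (0.1757, adjusted p = 0.101), where 1 member in place of 2 was higher. Leaving out single arrays gave 0.37 to 0.42 for Cdkn1b and -0.40 to -0.29 for Cdkn2a. At a threshold of 0.01 over all genes 1227 were higher and 1309 lower, against 2097 and 2111. Subtracting array medians moved the median gene by about 0.05 and made 62.9% of calls higher, against 49.8%. Same-numbered arrays did not pair (correlations of deviations 0.137, -0.313 and -0.04), and with the replicate block 1667 genes were higher and 1730 lower, with Cdkn2a at an adjusted p of 0.028, Cdkn2b at 0.000584, Cdkn2d at 0.00726 and Cdkn1b at 0.0102. Cks1b changed sign with the running median removed (0.0610, adjusted p = 0.713). Over the alternatives the number of genes higher in the cyclin list ran from 5 to 10, in the Rb and E2F list from 4 to 10, in the E2F target list from 5 to 10, in the list of INK4/ARF regulators from 2 to 5, in the ARF-Mdm2-p53 list from 2 to 5 and in the list of CIP/KIP transcription factors from 2 to 6. The numbers lower ran from 0 to 2, 1 to 2, 0 to 3, 2 to 5, 1 to 4 and 0 to 3, and from 0 to 5 in the turnover list. The cause was not tested beyond what each alternative changes.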
